A study of Homo sapiens with 6 samples.

Results

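The genes of the cytosolic ribosomal proteins were examined in HCCLM3, a human hepatocellular carcinoma (HCC) cell line with little *PON1*. Members were the genes named RPL, RPS or RPLP with a number, together with *RPSA*. The Y-linked *RPS4Y* genes and the *RPS6* kinases were left out. The rule found 84 of the 20381 genes in the table, 52 of the large subunit and 32 of the small subunit. A group of 7 was taken as the low-count paralogs (*RPL3L*, *RPL7L1*, *RPL10L*, *RPL22L1*, *RPL26L1*, *RPL39L* and *RPS27L*). The name does not hold for *RPL7L1*, which had 3295 to 4017 counts per library. Of the 84 genes, 82 had enough counts to be tested, and these were compared between 3 PON1-OE and 3 NC libraries. PON1-OE cells carried the coding sequence of *PON1*, a secreted esterase of the liver, in a lentivirus, and NC cells were the negative control, for which the series' design text names an empty lentiviral vector. The methods describe lines selected with puromycin, while the design text gives 15% serum and lysis at 24 h. Whether a line was 1 clone, and whether the replicates were separate cultures, is not given in the sources used here, so p-values measure the spread between these libraries.

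Each ribosome has a small subunit, which decodes the message, and a large subunit, which joins amino acids. Every ribosome carries 1 copy of nearly every ribosomal protein, so cells keep their production in balance. Their messages are among the most abundant in growing cells, and most start with a cytidine followed by further pyrimidines, the 5-prime terminal oligopyrimidine (TOP) tract, through which mTOR signaling controls their translation. Several paralogs replace their parent protein in particular tissues, such as *RPL3L* in striated muscle and *RPL10L* and *RPL39L* in the testis.

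The TOP tract could be seen in the start sites that RefSeq lists on GRCh38.p14. A single start was listed for 56 members. A run of at least 7 letters, each C or T on the transcribed strand, lay within 5 bases of the start in 47 of the 56, or 83.9%, against 15.2% of the 6880 tested genes with a single start. The start base itself was C in 78.6% of these members and in 11.4% of the tested genes. The windows below hold 10 bases before the start and 20 bases from it, with the run nearest the start in capitals. They show 2 abundant genes, 3 genes near the ends of the fold change order, and 2 pairs of parent and paralog.
RPLP0: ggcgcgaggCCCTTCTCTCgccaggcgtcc
RPL41: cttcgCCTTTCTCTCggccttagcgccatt
RPS24: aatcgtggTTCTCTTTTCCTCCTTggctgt
RPL38: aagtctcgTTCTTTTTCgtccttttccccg
RPS29: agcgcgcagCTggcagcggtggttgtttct
RPL22: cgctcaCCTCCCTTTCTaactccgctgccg
RPL22L1: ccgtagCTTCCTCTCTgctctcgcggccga
RPS27: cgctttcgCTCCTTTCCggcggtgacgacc
RPS27L: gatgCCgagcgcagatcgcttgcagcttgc

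These windows are at chr12:120201092-120201121 (minus strand) for *RPLP0*, chr12:56116623-56116652 (plus) for *RPL41*, chr10:78033853-78033882 (plus) for *RPS24*, chr17:74203668-74203697 (plus) for *RPL38* and chr14:49598691-49598720 (minus) for *RPS29*. Those of the pairs are at chr1:6199576-6199605 (minus) for *RPL22*, chr3:170870176-170870205 (minus) for *RPL22L1*, chr1:153990752-153990781 (plus) for *RPS27* and chr15:63157458-63157487 (minus) for *RPS27L*. Each holds the end of the promoter and the first exon's 5-prime end. *RPL22L1* had a run of 10 letters, like its parent with 11. *RPS27L* had a run of only 2 letters where *RPS27* had 9, and of the 4 paralogs with a single start only *RPL22L1* reached 7. *RPS29* had no run at the listed start either. The median log2 fold change (log2FC, PON1-OE against NC) was −0.0041 over the 47 members with a run and −0.0022 over the 8 tested members without one.

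*PON1* was checked first. The NC libraries had 0, 2 and 3 counts of it. PON1-OE libraries had 155, 181 and 167 counts. Their mean CPM was 59.8-fold that of a floor of 3 counts per NC library. The difference between the groups had an edgeR adjusted p of 2.99e-11. The total was 15706672 to 17948383 counts per library. The labels name the cells as hepatocytes. *GPC3* was at 0, and *TTR*, *SERPINA1*, *APOA1*, *ALB* and *AFP* had at most 18 counts in a library, while *HNF4A* (78.6 and 80.2 CPM, counts scaled to library size, in NC and PON1-OE) and the keratin *KRT8* (2409 and 2351 CPM) were well expressed. Of the markers with enough counts to be tested, 6 of 10 for hepatocytes, 1 of 5 for leukocytes, 2 of 5 for fibroblasts and 2 of 4 for endothelium, 0 had an edgeR adjusted p under 0.05. *PTPRC*, *CD3E* and *LYZ* were at 0. The leukocyte marker *CD68* was at 215.0 CPM in NC and 235.0 CPM with *PON1*. *LUM* (13.7 and 13.0 CPM), *PECAM1* (13.1 and 15.0), *KDR* (9.24 and 10.9) and *DCN* (4.27 and 5.10) were also detected. The summed leukocyte markers ranged from 205.9 to 226.9 CPM in NC and from 224.0 to 247.6 CPM in PON1-OE, and their part in the results was not tested.

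Ribosomal protein messages took a like share of the libraries in both groups. All 84 genes together held 3.95%, 3.95% and 4.08% of the counts in NC against 3.95%, 4.13% and 3.93% in PON1-OE. The means were 3.994% ± 0.0787 and 4.001% ± 0.112 (SD, n = 3), which differed by less than the SD. PON1-OE replicate 2 and NC replicate 3 stood above the other 4 libraries, so the spread lay within the groups. PON1-OE replicate 2 held the highest level of 45 of the 82 genes (54.9%) and NC replicate 3 that of 25 (30.5%), against 19.7% and 15.8% of all genes tested. The large subunit had 2.51% ± 0.0547 and 2.51% ± 0.0639, and the small subunit 1.49% ± 0.0249 and 1.49% ± 0.0480. The ratio of large to small subunit counts was 1.67, 1.69 and 1.70 in NC against 1.68, 1.67 and 1.69 in PON1-OE, and its group means differed by less than the SD of 0.0136 and 0.0129. Shares of counts cannot tell less RNA per cell from fewer cells, and a change of all messages together would not be seen in them.

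**Figure D1:**
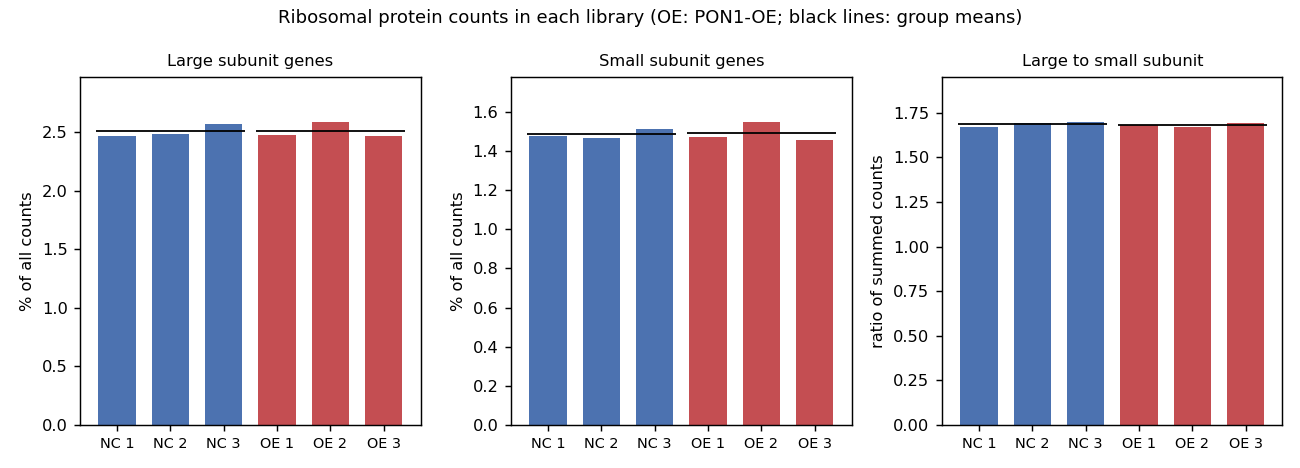
Share of all counts (%) held by large subunit and small subunit genes, and the ratio of the 2, in each NC (blue) and PON1-OE (red, labelled OE) library, with group means as black lines. NC replicate 3 and PON1-OE replicate 2 are the highest in both shares, and the group means lie together.

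Gene by gene, no ribosomal protein message changed past the threshold. None of the 82 genes had an adjusted p under 0.05 in edgeR, where 0.677% of all 11958 genes tested did, and the lowest was 0.284 (*RPS29*). With a change of over 1.5-fold in addition, the share of all genes was 0.0502%. At an unadjusted p under 0.05 there were 5 of the 82, or 6.10%, against 11.1% of all genes. Of these, 2 were higher (*RPS24* and *RPLP0*, against 5.91% of all genes) and 3 lower (*RPS29*, *RPL38* and *RPS27*, against 5.17%). DESeq2 gave 0 and limma-voom 0 at the adjusted threshold, with 6 and 5 at the unadjusted one. DESeq2 gave no adjusted p for 8 of 83 members, including *RPS29*, *RPL22L1*, *RPS27L* and *RPL39L*, so these could not pass there. The count at the unadjusted threshold rested on single libraries, since leaving out NC replicate 1 gave 2, leaving out PON1-OE replicate 2 gave 9 and leaving out PON1-OE replicate 3 gave 3. PON1-OE and NC did not overlap in 6 of the 82 genes, 3 above (*RPL10A*, *RPS24* and *RPSA*) and 3 below (*RPL36A*, *RPL38* and *RPS27L*). Of all genes, 16.1% did not overlap, 8.32% above and 7.74% below.

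The data were precise enough to bound the change. The log2FC ranged from −0.22 (*RPS29*) to 0.11 (*RPL39L*), with a median standard error of 0.0383. It was within ±0.05 for 57 of the 82 genes and beyond ±0.1 for 7. The quartiles of log2FC were −0.027 and 0.035 for the members and −0.072 and 0.069 over all genes tested. All 82 of the 95% intervals lay inside a 1.5-fold change either way, the fold threshold of the methods, and 75 lay inside ±0.2 on the log2 scale. The 7 wider intervals belonged to *RPL22L1*, *RPL23A*, *RPL38*, *RPL39L*, *RPS10*, *RPS27L* and *RPS29*. Of all 11958 genes tested, 10294 had an interval inside a 1.5-fold change and 4424 had one inside ±0.2, so the wider bound was common. The median log2FC was 0.0079 for the large subunit (29 positive and 21 negative), −0.0019 for the small subunit (16 and 16) and −0.0025 over all genes tested. The within-group SD of a member had a median of 0.0531 on the log2 scale, against 0.0458 for 1462 other genes of like level.

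**Figure D2:**
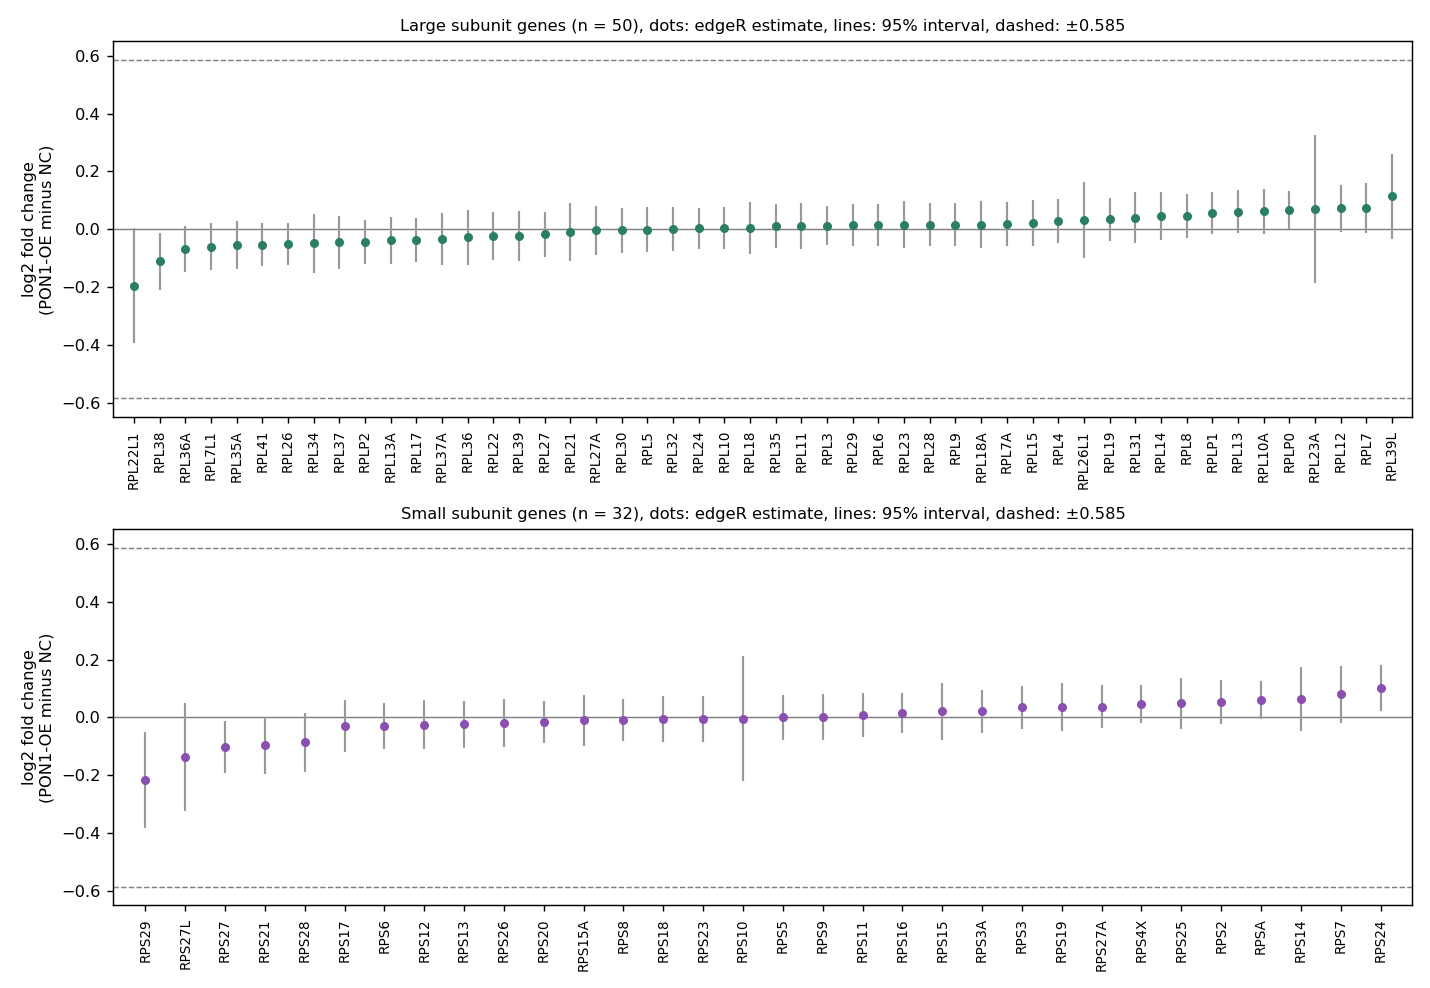
Log2 fold change (PON1-OE minus NC) of each tested large subunit gene (top, n = 50) and small subunit gene (bottom, n = 32), ordered by value, with edgeR's 95% interval. All intervals lie inside the dashed lines, which mark a 1.5-fold change, and *RPL22L1* and *RPS29* have the lowest values.

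*RPS29*, a small zinc-binding protein of the small subunit's head, had the lowest value in the list. Its level was 34.1, 30.5 and 37.4 CPM in NC and 30.7, 28.95 and 27.96 CPM in PON1-OE. The groups overlapped through NC replicate 2 and PON1-OE replicate 1, and the log2FC was −0.22 ± 0.080 (SE, edgeR adjusted p = 0.284).

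*RPL38*, a large subunit protein needed for translation of Hox messages in the mouse, gave 142.1, 133.6 and 137.8 CPM in NC and 132.4, 131.1 and 119.3 CPM in PON1-OE. The groups did not overlap, by a narrow margin (log2FC −0.11 ± 0.047, edgeR adjusted p = 0.389). *RPS27*, another zinc-binding small subunit protein, had 349.9, 351.4 and 356.1 CPM in NC and 327.7, 352.5 and 305.4 CPM in PON1-OE. Its NC libraries lay close together, and PON1-OE replicate 2 was among them (log2FC −0.10 ± 0.043, edgeR adjusted p = 0.381). Single libraries moved this value: leaving out PON1-OE replicate 2 gave −0.15 (adjusted p = 0.0617, the lowest of any member under any setting run) and leaving out PON1-OE replicate 3 gave −0.052 (adjusted p = 0.798). *RPS21* (log2FC −0.097) and *RPS28* (−0.086), which lies at the messenger's exit channel, and *RPL36A* (−0.068) and *RPL35A* (−0.054) completed the lower end and had edgeR adjusted p of 0.462 to 0.673.

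At the upper end was *RPS24*, which is mutated in Diamond-Blackfan anemia. It had 186.2, 191.5 and 188.1 CPM in NC and 203.0, 205.1 and 199.6 CPM in PON1-OE. Every PON1-OE library stood above every NC library, with log2FC 0.10 ± 0.038 (edgeR adjusted p = 0.288). *RPLP0*, the base of the acidic stalk that recruits elongation factors, had 2320, 2317 and 2454 CPM in NC and 2435, 2528 and 2461 CPM in PON1-OE. NC replicate 3 lay among the PON1-OE libraries (log2FC 0.066 ± 0.032, edgeR adjusted p = 0.450). *RPSA*, also known as the laminin receptor, had 1120, 1095 and 1150 CPM in NC and 1155, 1198 and 1156 CPM in PON1-OE, without overlap (log2FC 0.060 ± 0.032, edgeR adjusted p = 0.516). *RPL7* (0.073), *RPL12* (0.072), which also belongs to the stalk, *RPS7* (0.080), *RPS14* (0.064), which is lost in the 5q deletion syndrome, and *RPS2* (0.054) had edgeR adjusted p of 0.512 to 0.720.

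*RPL5* and *RPL11* bind the 5S rRNA and, outside the ribosome, MDM2, the inhibitor of p53. *RPL5* had 449.8, 442.6 and 483.1 CPM in NC and 448.7, 463.8 and 461.1 CPM in PON1-OE, and *RPL11* had 245.2, 256.7 and 256.1 CPM in NC and 256.0, 261.9 and 246.2 CPM in PON1-OE. The PON1-OE values of *RPL5* lay within the NC range, and those of *RPL11* overlapped it. Their log2FC was −0.0019 ± 0.038 and 0.012 ± 0.039 (edgeR adjusted p = 0.989 and 0.944).

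Levels differed far more between members than between groups. On the scale of CPM per kb of transcript, the median over the 77 members without the paralogs was 564.1, compared with 15.1 over all genes tested, and 74 of the 77 were above 100. The first places were held by *RPLP0* (2858 ± 99.3 CPM per kb, SD over the 6 libraries), *RPL10* (1898 ± 63.7), which completes the large subunit, *RPL41* (1736 ± 66.7), the shortest member, and the small subunit genes *RPS2* (1618 ± 69.8), *RPS16* (1614 ± 38.0) and *RPS3A* (1533 ± 52.8). *RPL10* and *RPL41* differed by more than their SDs, while *RPS2* and *RPS16* did not. These SDs do not cover error in the transcript length, a median over annotated protein-coding transcripts. For *RPLP0* that median (846.5 bases) was below the coding length (951), as it was for *RPS2* and *RPS3A*, so the order is uncertain. The last places were held by *RPL23A* (14.5 ± 1.24), *RPS10* (20.9 ± 1.58) and *RPS29* (54.3 ± 6.06). *RPL23A*, which lies at the exit tunnel, had 9.39, 8.13 and 9.44 CPM in NC and 10.4, 8.57 and 9.26 CPM in PON1-OE (log2FC 0.070 ± 0.12, edgeR adjusted p = 0.891). *RPS10* had 202 to 261 counts per library (log2FC −0.0041), and its readthrough gene *RPS10-NUDT3*, with which it shares exons, had 15.9 and 15.2 CPM in NC and PON1-OE. How the counting divided reads between the pair is not given in the sources used here, so these low levels are uncertain. Counts of processed pseudogenes, of which this family has many, may be divided in the same way.

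The short members differed from the long ones. This grouping by coding length (GENCODE v29) was made after the values had been seen, and it is a description. Of the 11 members of under 300 coding bases, 10 had a negative log2FC, with a median of −0.086, while the median of 250 other genes of that length was −0.0064. The only positive one was *RPL39L*. From 300 to under 400 bases 12 of 17 were negative, and from 400 to under 600 bases 21 of 31 were positive. At 600 bases or more 18 of 23 were positive with a median of 0.021, while 10309 other genes of that length had −0.0044. From the shortest class to the longest, 90.9%, 70.6%, 32.3% and 21.7% of the members were negative. Of the other genes 51.6%, 45.4%, 47.3% and 51.5% were. Across the 82 genes, log2FC and log2 coding length had Pearson's r = 0.47 and Spearman's rho = 0.52. In the small subunit r was 0.73 (n = 32), and in the large subunit it was 0.33 (n = 50). Over 11882 tested genes r was −0.016. Across the 82 genes, r of log2FC was 0.14 with log2 transcript length and 0.33 with log2 mean CPM. With log2 mean CPM it was 0.52 in the small subunit and 0.16 in the large. Coding length and level were not separated. Genes are not independent replicates, and they share the 6 libraries, so no p is given.

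**Figure D3:**
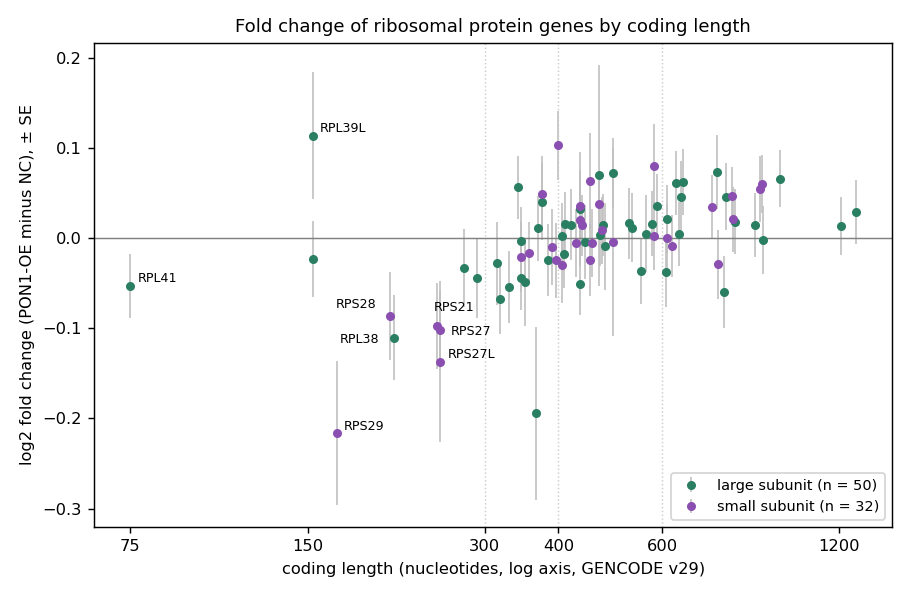
Log2 fold change (PON1-OE minus NC, ± SE) of the 82 tested genes against coding length on a log axis, in green for the large and purple for the small subunit, with dotted lines at the limits of the length classes. Most genes of under 300 bases lie below 0, apart from *RPL39L*, and the green point near −0.19 is *RPL22L1*.

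The length pattern was strongest in 1 library and weaker without it. PON1-OE replicate 3 had the lowest level of 9 of the 11 short genes (81.8%), and of 24.4% of the other short genes. Relative to each gene's mean over the libraries, the median of the 11 was −0.14 in this library on the log2 scale, −0.018 and 0.041 in PON1-OE replicates 1 and 2, and 0.028, 0.012 and 0.055 in NC. The correlation of these deviations with coding length over the 82 genes was 0.60 in PON1-OE replicate 3, −0.037 and 0.22 in the other PON1-OE libraries and −0.33 to −0.24 in NC. The median of the short members minus that of the members of 600 bases or more was 0.054, 0.058 and 0.031 in NC. In PON1-OE it was 0.011, −0.012 and −0.15, lower in each library than in each NC library. The length classes were set after the fold changes were seen, so this separation partly restates that choice and is no separate support. In log2FC the difference was −0.11 with all libraries, against −0.0020 for other genes of these lengths. Without PON1-OE replicate 3 it was −0.063, against 0.00095 for the other genes. Leaving that library out, 8 of the 11 had a negative log2FC with a median of −0.035, r was 0.34 and rho 0.40. With GC content and transcript length removed, 9 of the 11 were negative with a median of −0.078. This setting removed trends fitted over all genes, where r of log2FC with log2 transcript length was −0.036. It did not remove coding length, so it cannot show whether the pattern is independent of length. PON1-OE replicate 3 also had the fewest counts of the 6 libraries, and the part of depth or of the library's preparation was not tested.

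**Figure D4:**
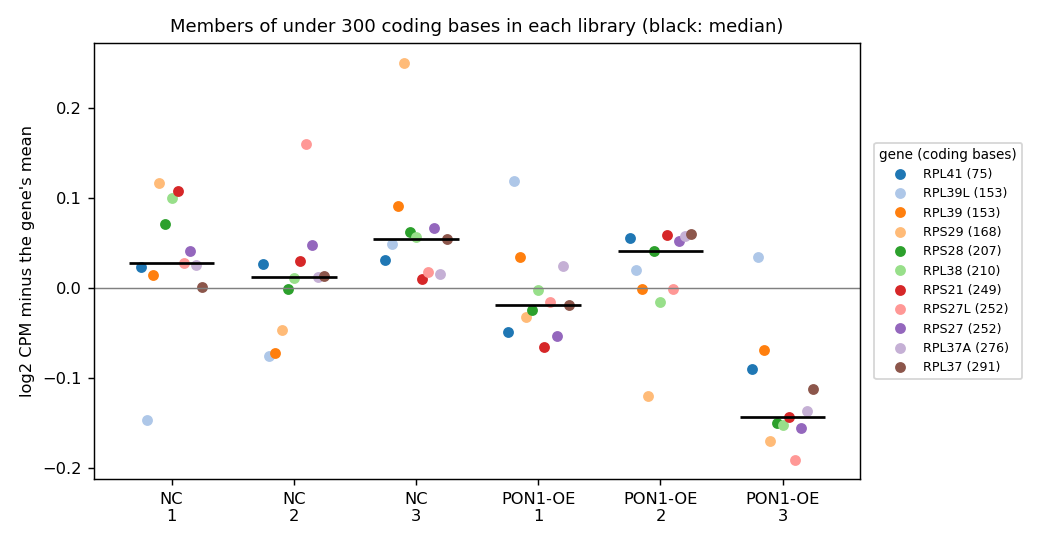
Log2 CPM of each of the 11 members of under 300 coding bases relative to the gene's mean over the 6 libraries, by library, with the median as a black line. PON1-OE replicate 3 is lowest for 9 of the 11, with a median of −0.14, while *RPL39L* and *RPL39* do not have their lowest value there.

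The messages of the paralogs were at lower levels than those of their parents. *RPL10L* had no count in any library, which allows at most 3 counts, and *RPL3L* had at most 3 counts in a library, so neither was tested and no fold is given. Per kb of transcript, *RPL22* exceeded *RPL22L1* 4.86-fold, *RPL26* exceeded *RPL26L1* 16.8-fold, *RPL7* exceeded *RPL7L1* 17.5-fold, *RPL39* exceeded *RPL39L* 18.1-fold and *RPS27* exceeded *RPS27L* 41.0-fold. These folds rest on the same median transcript lengths. *RPL7L1* was not low by itself. It averaged 216.7 CPM over the NC libraries against 208.0 with *PON1*, and the groups overlapped (log2FC −0.059 ± 0.040, edgeR adjusted p = 0.633). *RPL22L1*, which can replace *RPL22*, had the largest within-group SD of the tested members (0.196 on the log2 scale). It had 31.4, 35.9 and 38.9 CPM in NC and 26.3, 36.1 and 30.5 CPM in PON1-OE, with overlap (log2FC −0.19 ± 0.096, edgeR adjusted p = 0.463). Leaving out PON1-OE replicate 1 gave a log2FC of −0.085, and leaving out PON1-OE replicate 2 gave −0.32. *RPS27L*, which is induced by p53, had 19.0, 20.8 and 18.9 CPM in NC and 18.4, 18.6 and 16.3 CPM in PON1-OE, all PON1-OE libraries lying below NC (log2FC −0.14 ± 0.089, edgeR adjusted p = 0.617). *RPL39L* had 32.3, 33.9 and 36.9 CPM in NC and 38.8, 36.2 and 36.6 CPM in PON1-OE (log2FC 0.11 ± 0.071, edgeR adjusted p = 0.596).

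Within a pair, the paralog's share of the summed counts was compared as a single value per library. The shares were not scaled for transcript length, which was 3769 bases for *RPL7L1* and 931.5 for *RPL7*. *RPL7L1* made up 19.7%, 19.2% and 19.5% of its pair in NC against 18.5%, 17.5% and 18.2% in PON1-OE. *RPL26L1* made up 6.58%, 6.52% and 6.59% in NC against 6.79%, 7.03% and 6.96% in PON1-OE. *RPL39L* made up 8.44%, 9.32% and 9.10% in NC against 9.85%, 9.47% and 9.97% in PON1-OE. In these 3 pairs the groups did not overlap (two-sided exact permutation p = 0.1, the smallest that 3 against 3 allows, and 0.167 adjusted over the 5 pairs with counts). *RPL22L1* made up 14.6% ± 1.02 and 13.2% ± 1.60 (SD, n = 3, exact permutation p = 0.2) and *RPS27L* 5.26% ± 0.297 and 5.14% ± 0.164 (exact permutation p = 0.6). The difference in the mean share was −1.39 percentage points for *RPL7L1*, 0.362 for *RPL26L1* and 0.807 for *RPL39L*.

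**Figure D5:**
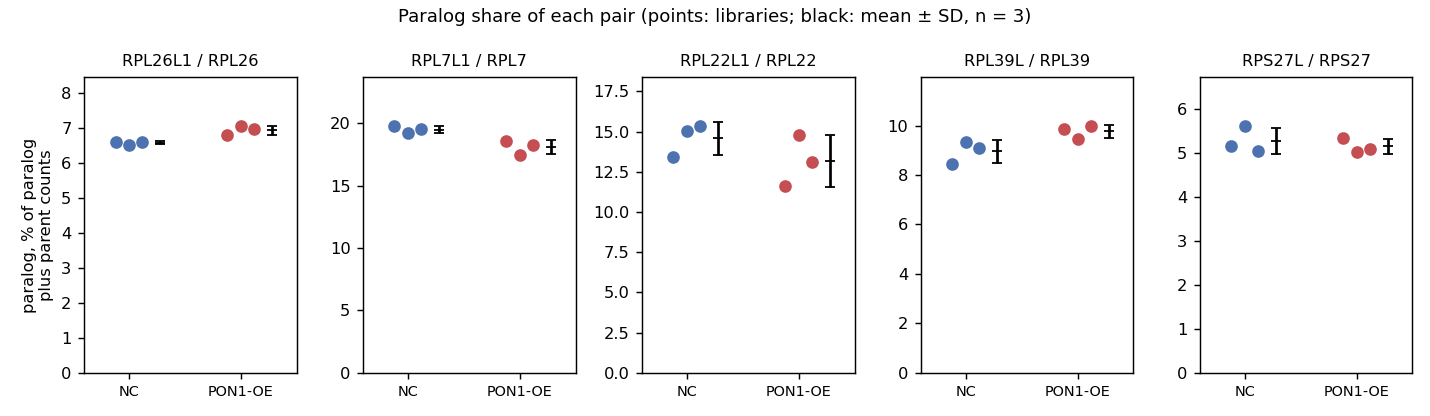
Counts of the paralog as % of the summed counts of paralog and parent for 5 pairs, with NC libraries in blue, PON1-OE libraries in red and the mean ± SD (n = 3) in black. The groups do not overlap for *RPL26L1*, *RPL7L1* and *RPL39L*, and they overlap for *RPL22L1* and *RPS27L*.

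The other genes of ribosome production had no adjusted p under 0.05 in edgeR either. Of all genes tested, 0.677% had an adjusted and 11.1% an unadjusted p under 0.05, and 16.1% had groups without overlap. *FAU*, *RACK1* and RPL36AL encode ribosomal proteins that the naming rule leaves out, and their log2FC was 0.032 ± 0.044, 0.020 ± 0.040 and −0.066 ± 0.056 (SE, edgeR adjusted p = 0.854, 0.902 and 0.727). Among 14 other messages with a TOP tract, such as the elongation factor *EEF1B2* (log2FC 0.068 ± 0.039) and the initiation factor *EIF4B* (−0.052 ± 0.033), 0 passed and 0 had an unadjusted p under 0.05. The RNA polymerase I genes, which make the rRNA precursor, had 0 of 14 at either threshold, with *POLR1G* at 0.15 ± 0.070 and *POLR1C* at −0.15 ± 0.080. Of 35 rRNA processing and assembly factors 0 passed and 3 had an unadjusted p under 0.05 (8.57%). The lowest adjusted p in this list was that of *DDX21*, a nucleolar RNA helicase, with a mean of 295.8 ± 12.6 CPM in NC against 270.1 ± 3.57 CPM with *PON1* (SD of 3 libraries each) and no overlap (log2FC −0.13 ± 0.039, edgeR adjusted p = 0.157). *PES1*, which matures the large subunit rRNA, had 0.12 ± 0.047 (edgeR adjusted p = 0.314). Of 8 chaperones of ribosomal proteins 0 were past either threshold, with *HEATR3*, which carries *RPL5* into the nucleus, at −0.22 ± 0.12 and *TSR2*, the chaperone of *RPS26*, at −0.030 ± 0.062. The 77 genes of the mitochondrial ribosome, a separate machine, had 0 at the adjusted and 4 at the unadjusted threshold (5.19%) and a median log2FC of 0.012. The 11 snoRNA host genes of a further list were not analysed here.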

How the data were processed

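Poly(A) RNA of 3 NC and 3 PON1-OE libraries was sequenced on an Illumina NovaSeq (NEBNext Ultra kit). The authors deposited estimated counts per gene, not normalized, of which 10.5% were not whole. These were rounded, which the design had not foreseen. Submitters' processing notes name Bowtie2 2.2.8, HISAT2, StringTie 1.3.1 and DESeq2, and the build and annotation are not given in the sources used here. The main test was the quasi-likelihood test after TMM scaling (edgeR 4.0.16, limma 3.58.1, DESeq2 1.42.0, R 4.3.3) over the 11958 genes kept by filterByExpr, with Benjamini-Hochberg adjustment over all of them, and fits were tested on simulated data. Transcript length and GC content are medians over protein-coding transcripts in GENCODE v29 (GRCh38), with which all 84 members matched by Ensembl identifier. Coding length is that of 1 transcript per gene, chosen by best APPRIS tag, then transcript support level, then the shortest. Start sites are from RefSeq (GRCh38.p14), which listed 1 start for 56 members, several for 11 and none for 17. The floor was 3 counts (0.167 to 0.191 CPM per library, counting error only). Alternatives were RLE factors, DESeq2, limma-voom, leaving out each library, a block for the replicate number, no filter, a minimum of 10 counts in each library, GC content and length removed with splines of 5 degrees of freedom, and the fold threshold. For the share and the ratio they were counts not rounded and sums without the paralogs. Named genes were those of each subunit with the 5 highest and 5 lowest log2FC and the 3 highest levels per kb, the paralogs with their parents, members under 10 CPM, *RPL5*, *RPL11*, *PON1* and the 2 genes of lowest p in each list; *RPL10A*, *RPS10* and the short members were added after their values were seen. The members and lists were chosen with earlier results of these data known. Correlations of same-numbered libraries' deviations from their group means were 0.0173, −0.0231 and 0.0205, so the numbers were not taken to pair libraries. Some single genes of the marker and gene lists are not reported here.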

Additional observations from a re-analysis of the deposited data

How the results depend on the processing

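The count of ribosomal protein genes with an adjusted p under 0.05 was 0 in the main edgeR fit and under each of the 14 alternatives run. Some alternatives used DESeq2 or limma, and DESeq2 gave no adjusted p for 8 of 83 members. The lowest adjusted p of a member was 0.0617 (edgeR, *RPS27* without PON1-OE replicate 2). The count at an unadjusted p under 0.05, 5 of 82, was 8 with no filter and 2 to 9 without any 1 library. Over all genes, the 81 with an adjusted p under 0.05 became 177 with no filter, 123 with DESeq2, 6 with the fold threshold and 11 to 103 without any 1 library. With the replicate number as a block they became 40, while the members' count stayed 0 at the adjusted and 5 at the unadjusted threshold. The labels do not say that the numbers pair libraries. The cause of these moves was not tested.

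The medians of both subunits, the share of counts and the ratio moved by less than the spread between libraries under the alternatives run. All of them lay near 0 and took either sign when 1 library was left out. The median log2FC ranged from −0.018 to 0.032 for the large and from −0.028 to 0.025 for the small subunit, the difference in share from −0.0577 to 0.0519 percentage points and that in the ratio from −0.0130 to 0.00071. Of 31 named genes, 23 kept the sign of their log2FC throughout and 8 did not. Where the sign turned, the adjusted p was at least 0.646, from edgeR or, with GC content and length removed, limma. *RPL10* (0.0047) was −0.0070 and *RPL39* (−0.023) was 0.0029 with GC content and length removed. Without any 1 library, *RPL10* ranged from −0.036 to 0.032, *RPL11* from −0.0092 to 0.036, *RPL22* from −0.040 to 0.0046, *RPL23A* from −0.0067 to 0.13, *RPL39* from −0.064 to 0.017, *RPL5* from −0.027 to 0.037, *RPS14* from −0.014 to 0.13 and *RPS16* from −0.014 to 0.039. Of the genes with the lowest and highest values, *RPS29* ranged from −0.29 to −0.14, *RPS27L* from −0.17 to −0.079, *RPL38* from −0.13 to −0.064, *RPS24* from 0.094 to 0.11 and *RPL39L* from 0.072 to 0.17. The depth and 3 libraries a group limit single genes to a median SE of 0.0383, so changes of a few percent were not detectable. Larger differences in mean CPM were not called either, such as −14.0% for *RPS29* and 7.42% for *RPS24* (edgeR adjusted p = 0.284 and 0.288).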
